A study of Homo sapiens with 6 samples.

Results

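LMX1B encodes a LIM-homeodomain transcription factor. Contacts at its locus were read from HiChIP, which joins chromosome conformation capture to an immunoprecipitation and so lists pairs of DNA regions that touch where a chosen protein or histone mark is present. The members are all listed loops with at least 1 anchor overlapping the 200 kb from 129300000 to 129500000 on chromosome 9 (hg19), which holds the LMX1B body at 129376722 to 129463311. They number 1168 of the 736589 loops listed over 6 libraries. A loop is a pair of anchors on the same chromosome, and each row gives how many paired-end tags (PETs) joined them. The locus was chosen by its contact values, since H3K27ac contacts exceeded ARID1A contacts at the promoter, so that difference at day 3 is described here without a test. The comparison of H3K27ac between times was tested, although its day 3 libraries also entered that choice.

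The libraries were made from G401, an established human rhabdoid tumour cell line of the kidney that has no SMARCB1, in a stable derivative with SMARCB1 under doxycycline control, kept in Tet-free serum. Both SMARCB1 and ARID1A belong to SWI/SNF complexes, which remodel nucleosomes. There were 3 groups of 2 libraries. One was immunoprecipitated for ARID1A at day 3 of doxycycline at 1 μg/ml (labelled SMARCB1 +/+), one for H3K27ac at day 3 of the same treatment, and one for H3K27ac at day 0 (labelled SMARCB1 -/-). Doxycycline, SMARCB1 and time in culture differed together between days, so they cannot be told apart, and ARID1A at day 0 was not analysed here. All groups are derivatives of 1 line. The labels do not say that replicates were separate cultures, so the p-values reflect library-to-library spread that may be technical. There were no expression data with which to check the line's markers.

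In vertebrates LMX1B patterns the dorsal side of the limb, is needed in podocytes of the kidney glomerulus and acts in the development of dopaminergic and serotonergic neurons. Loss of 1 copy in humans causes nail-patella syndrome, in which kidney disease can occur. H3K27ac marks active promoters and enhancers, so H3K27ac HiChIP favours contacts that have an active element at an end. Whether LMX1B was transcribed in these cells was not measured.

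The promoter of LMX1B is shown because the gene start lay in an H3K27ac anchor at both times and in no ARID1A anchor. The sequence is RefSeq's, from GRCh38.p14 (chr9:126613678-126613977, plus strand, 250 bases before to 50 after the annotated start), and was not compared by position with the hg19 anchors. Capitals mark GGGCGG, the GC box.
LMX1B promoter: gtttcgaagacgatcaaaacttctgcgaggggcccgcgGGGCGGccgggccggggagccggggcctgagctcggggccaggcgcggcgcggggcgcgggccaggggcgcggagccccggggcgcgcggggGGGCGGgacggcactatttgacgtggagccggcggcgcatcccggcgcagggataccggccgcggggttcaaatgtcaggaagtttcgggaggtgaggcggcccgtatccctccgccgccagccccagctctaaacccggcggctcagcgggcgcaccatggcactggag
These 300 bases were 75.3% G or C and held 42 CpG dinucleotides, against medians of 58.7% and 14 over 35116 promoters of the same table. More CpGs were found in 4.98% of promoters. Searched on both strands, GGGCGG matched 2 times (45.0% of promoters hold it) and the E-box CANNTG 1 time (68.7%). The AP-1 letters TGANTCA (7.71% of promoters) and the TATA box TATAAA (11.5%) were not in this stretch. The promoter shared 228 bases with that of LMX1B-DT, a long non-coding RNA gene named as a divergent transcript of LMX1B. By gene order in GRCh38, the nearest protein-coding neighbours are MVB12B and then PBX3 before LMX1B, and ZBTB43 and then ZBTB34 after it. The hg19 anchors were not assigned to these neighbours.

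The window held far more H3K27ac than ARID1A contacts. There were 284 and 349 PETs in the ARID1A libraries, 2834 and 3062 in H3K27ac at day 3, and 1231 and 1123 in H3K27ac at day 0. Depth differed, since the libraries listed 435210 and 467487, 929128 and 982141, and 301703 and 253502 PETs in the same order. Per 1000000 listed PETs of the library (CPM), the window held 653 and 747 for ARID1A, 3050 and 3118 for H3K27ac at day 3, and 4080 and 4430 for H3K27ac at day 0. All 4 H3K27ac libraries lay above both ARID1A libraries, and the 3 groups did not overlap. As a share of the library, the ARID1A values were 0.0653% (95% Wilson interval 0.0581% to 0.0733%) and 0.0747% (0.0672% to 0.0829%). Those intervals cover counting error only. Many of the window PETs in each group had an end in an anchor that lay mostly outside the window, as given below.

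Among 200 kb windows placed every 100 kb along the genome, 0.522% and 0.521% of those with PETs in the H3K27ac day 3 libraries held more than LMX1B, as did 1.28% and 0.898% at day 0. For ARID1A, 11.1% and 8.78% of windows held more. The locus was thus among the richer windows in every library. Its place nearer the top for H3K27ac restates the contrast that chose it. The number of windows with PETs also differed, with 13490 and 13603 for ARID1A, 11678 and 11699 for H3K27ac at day 3, and 7866 and 7796 at day 0.

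The anchors called in the window differed between groups, which bears on every value that follows. There were 9 for ARID1A covering 107885 bp, 8 for H3K27ac at day 3 covering 137238 bp, and 9 for H3K27ac at day 0 covering 100378 bp, the same in both replicates of a group. Of them 1 pair was identical base for base between groups, at 129388548 to 129395461 in ARID1A and in H3K27ac at day 0. Anchors that overlap were merged into 9 consensus anchors, named here by the distance of their midpoint from the LMX1B start. They are the -96 kb anchor (129259093 to 129301878), -62 kb (129305779 to 129322856), -39 kb (129335842 to 129339940) and -10 kb (129363038 to 129371377) upstream of the gene, the start anchor (129372161 to 129400338), 26 kb (129400338 to 129405968) and 60 kb (129419271 to 129453592) inside the gene body, the end anchor (129454562 to 129469803) at 85 kb, and 109 kb (129483619 to 129487421) downstream. Exon and intron positions in hg19 were not used here. The -96 kb anchor lay mostly outside the window, reaching 1878 bp into it for H3K27ac at day 3 and 523 bp in the other groups. In those other groups it also holds called anchors wholly outside the window. It had 39686 bp called for ARID1A, with 27079 bp in the anchor that reaches the window, and 37270 and 29353 bp at day 0. Its values, the consensus loops and the outside partners of the locus thus include some loops that are not members. The called anchor that reaches the window was at an end of 89 of 284 and 142 of 349 window PETs for ARID1A. For H3K27ac it was at an end of 1392 of 2834 and 1511 of 3062 at day 3. At day 0 it was at an end of 531 of 1231 and 473 of 1123. The window totals, CPM, place among genome windows and share over time thus rest in part on this anchor. No value without it is given. The next consensus anchor past the downstream edge began at 129546115 and lies outside the window.

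**Figure D1:**
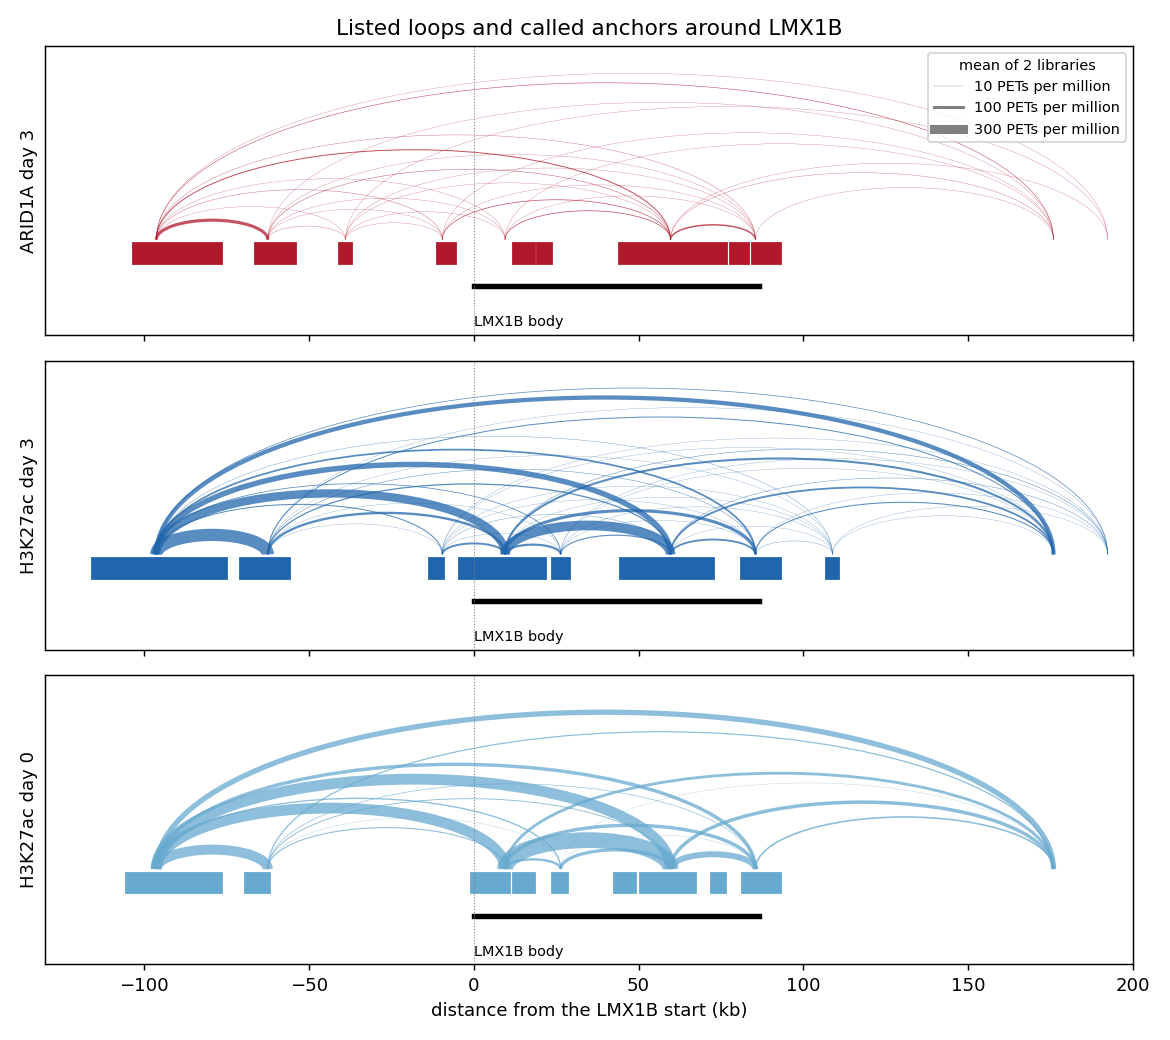
Map of loops around LMX1B for ARID1A day 3, H3K27ac day 3 and H3K27ac day 0, from top to bottom, by distance from the LMX1B start in kb. Arcs join midpoints of consensus anchors, with line width proportional to mean CPM (n = 2 libraries), filled boxes are the called anchors of the window, and arcs leaving the plotted range are not drawn. The 60 kb anchor is joined to the start anchor by thick arcs in both H3K27ac panels and by a thin arc for ARID1A, where no box covers the start.

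The LMX1B start itself lay in an H3K27ac anchor at both times and in no ARID1A anchor. At day 3 that H3K27ac anchor ran from 129372161 to 129398676, with 1063 and 1173 PETs. The day 0 anchor at the start ran from 129375967 to 129387820 and held 386 and 317 PETs, and a further one at 129388548 to 129395461 held 79 and 61. The ARID1A anchors nearest to the start ended 5345 bp before it, at 129371377, and began 11826 bp after it, at 129388548. Contacts of ARID1A at the start itself were therefore not measured, and the ARID1A values of the start anchor come from 2 pieces inside the gene, covering 11165 bp, against 26515 bp called for H3K27ac at day 3 and 18766 bp at day 0.

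At the start anchor, ARID1A had 48.3 and 47.1 CPM, from 21 and 22 PETs. H3K27ac had 1144 and 1194 CPM at day 3 and 1329 and 1302 at day 0. The ARID1A libraries lay far below all 4 H3K27ac libraries. The ratio of H3K27ac at day 3 to ARID1A was 24.5, a value of the contrast that chose the locus. Per kb of called anchor the ratio was 10.3, from 4.27 ± 0.0755 CPM for ARID1A and 44.1 ± 1.34 for H3K27ac at day 3 (SD, n = 2 each). Among 11626 anchors called with both antibodies, 23 (0.198%) had a lower ratio of ARID1A to H3K27ac, and per kb 89 (0.766%) did. The median anchor had a log2 ratio of -0.21, and the start anchor -4.62.

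The other anchors of the locus also had fewer ARID1A contacts, by smaller factors. H3K27ac at day 3 exceeded ARID1A by 4.85 times at the -96 kb anchor, 3.62 times at -62 kb, 3.51 times at 60 kb and 3.08 times at the end anchor. At the -10 kb anchor, just upstream of the start, ARID1A had 80.4 and 72.7 CPM and H3K27ac at day 3 had 144 and 149, a ratio of 1.91. Per kb these ratios were 4.70, 2.97, 4.04, 3.72 and 2.37 in the same order. Between 7% and 29.9% of all 11626 anchors had a lower ratio of ARID1A to H3K27ac than these 5, and per kb between 4.47% (-96 kb) and 20.4% (-10 kb) did. The 26 kb and 109 kb anchors were called for H3K27ac and not for ARID1A, and the -39 kb anchor for ARID1A only, with 19 and 24 PETs. Regions without an anchor in a group were not measured there.

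**Figure D2:**
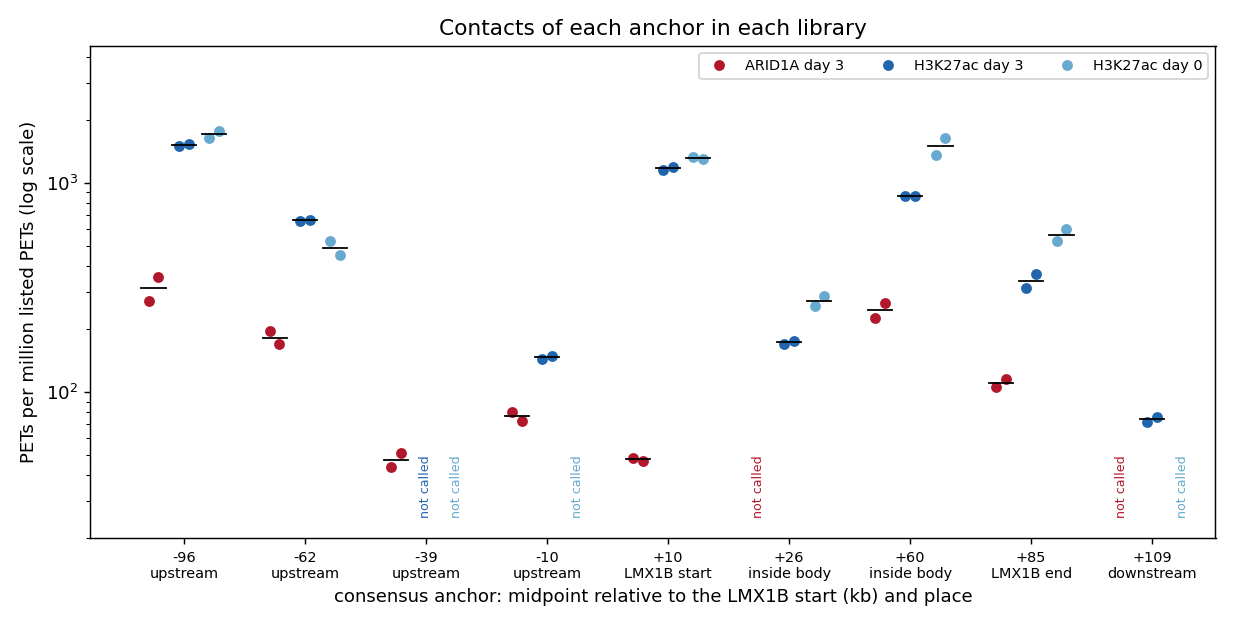
CPM (log scale) of each consensus anchor in each library, with black bars for the mean of 2 libraries, ordered by midpoint from the LMX1B start in kb. The ARID1A points dip to 48.3 and 47.1 at the start anchor, where H3K27ac libraries lie between 1144 and 1329, and groups without an anchor are marked as not called.

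The order of the anchors by density is a description only. The place of the start anchor in it restates the contrast that chose the locus. The -62 kb anchor was at or near the top with both antibodies. For ARID1A the densest was the -62 kb anchor, with 14.5 ± 1.49 CPM per kb, followed by -10 kb with 13.2 ± 0.937 and -39 kb with 11.6 ± 1.33. These neighbours in the order differed by less than about the sum of their SDs. The start anchor was lowest at 4.27 ± 0.0755, below the 60 kb anchor at 7.51 ± 0.910. For H3K27ac the start anchor was densest at both times, with 44.1 ± 1.34 at day 3, against 70.1 ± 1.03 at day 0 (SD, n = 2 each). The -62 kb anchor came next, with 43.3 ± 0.0983 at day 3, against 65.0 ± 6.99 at day 0. The start and -62 kb anchors did not differ beyond their spread at either time.

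**Figure D3:**
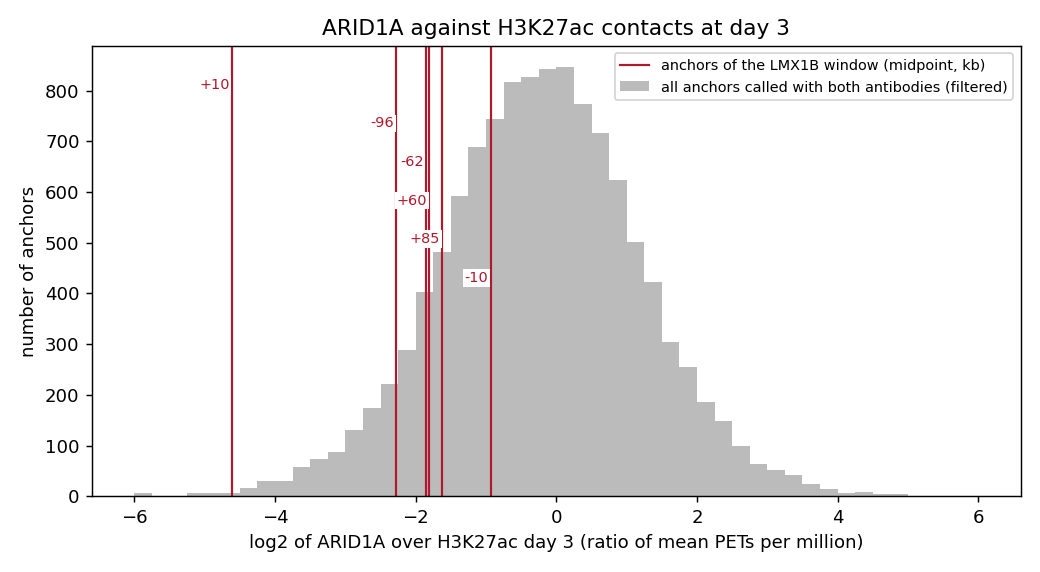
Number of anchors by log2 ratio of ARID1A to H3K27ac day 3, from mean CPM, for the 11626 anchors called with both antibodies and with 10 or more PETs in 2 or more day 3 libraries (the outermost bins also hold values beyond them). Red lines mark the 6 anchors of the LMX1B window by midpoint in kb, of which the start anchor, at +10 kb, lies at -4.62 and the other 5 between -2.28 and -0.94.

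Single loops showed the same contrast, again as a description. The loop from the start anchor to the 60 kb anchor, over 50.2 kb, held 9 and 13 PETs for ARID1A (20.7 and 27.8 CPM), 295 and 319 for H3K27ac at day 3 (317 and 325 CPM), and 154 and 136 at day 0 (510 and 536 CPM). From the -96 kb anchor to the start, over 106 kb, ARID1A had 4 and 1 PETs, against 257 and 272 for H3K27ac at day 3 and 104 and 95 at day 0. The start to the end anchor had 1 PET in each ARID1A library, and 85 and 110 for H3K27ac at day 3 and 37 and 27 at day 0. Among the 8 leading loops, those without the start anchor differed less. The loop of the -96 kb and -62 kb anchors, the leading loop for ARID1A, had 47 and 45 ARID1A PETs (108 and 96.3 CPM) and 371 and 406 H3K27ac PETs at day 3 (399 and 413 CPM). From the 60 kb anchor to the end anchor there were 46.0 and 53.5 CPM for ARID1A and 63.5 and 59.1 for H3K27ac at day 3. From -10 kb to 60 kb, past the start, ARID1A had 25.3 and 21.4 CPM, above the 14.0 and 11.2 of H3K27ac at day 3. This was the only loop of the 8 named by rank in which ARID1A was the higher. It rested on few PETs, since the whole -10 kb anchor had 35 and 34 in the ARID1A libraries. That anchor was also called over partly different bases, 129365574 to 129371377 for ARID1A and 129363038 to 129367726 for H3K27ac at day 3.

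Where the start anchor's contacts went was compared as shares, which do not depend on scaling but do depend on which anchors were called. The 60 kb anchor took 9 of 21 and 13 of 22 ARID1A PETs, or 42.9% (Wilson interval 24.5% to 63.5%) and 59.1% (38.7% to 76.7%). It took 27.8% and 27.2% for H3K27ac at day 3, and 38.4% and 41.2% at day 0. The -96 kb anchor took 24.2% and 23.2% at day 3 and 25.9% and 28.8% at day 0. Between times the share to the 60 kb anchor was lower in both day 3 libraries than in both day 0 libraries, which was not tested as a share. The -10 kb anchor, called at day 3 and not at day 0, took 5.27% and 5.97% of the day 3 PETs. The start anchor had 57 and 56 partner anchors at day 3 and 25 and 22 at day 0, in libraries that differ in depth and in the number of anchors called.

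The tested question was how H3K27ac contacts of the locus differed between day 3 of SMARCB1 re-expression and day 0. Contacts of the gene body and the end of LMX1B fell, those of the -62 kb anchor rose, and those of the start and -96 kb anchors did not pass the test. Folds are relative to the typical anchor among those present on both days, by the quasi-likelihood test of edgeR over 6699 such anchors, with Benjamini-Hochberg adjustment. Of the 6 anchors of the window that were tested, 3 fell and 1 rose. Over all tested anchors 27.1% fell and 27% rose, so that 54.1% were called, and 4 of 6 (66.7%) is not far from that share. The median log2 fold change was -0.39 over the 6 and 0.02 over all.

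The 60 kb anchor in the gene body had 863 and 865 CPM at day 3 and 1352 and 1637 at day 0. Both day 3 libraries lay below both day 0 libraries, and the log2 fold change was -0.76 ± 0.07 (SE, edgeR adjusted p = 6.94e-14). Its called width was nearly the same, 28515 bp at day 3 and 28111 bp at day 0, but the bases differed in part. The day 3 anchor ran from 129421231 to 129449746, and the day 0 anchors lay between 129419271 and 129453150. A day 0 anchor at 129448788 to 129453150, mostly past the day 3 end, held 113 and 115 PETs. The fold of the 60 kb anchor thus also counts PETs in stretches called on day 0 or day 3 only. The end anchor fell too, with 314 and 367 CPM at day 3 and 524 and 600 at day 0 (-0.69 ± 0.11, adjusted p = 1.72e-07), on 11937 and 11619 bp. So did the 26 kb anchor, with 170 and 176 at day 3 and 259 and 288 at day 0 (-0.63 ± 0.15, adjusted p = 0.000215). Of all tested anchors, 13.8%, 16.5% and 19.0% had lower fold changes than these 3. All 3 stayed called whichever of the 4 libraries was left out. They were not called as lower when loops were limited to a deposited value of 0.01 or less, where the 60 kb anchor had -0.28 (edgeR adjusted p = 0.291), the end anchor -0.31 (adjusted p = 0.302) and the 26 kb anchor, with no such loop at day 0, a positive value.

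The -62 kb anchor had 659 and 661 CPM at day 3 and 524 and 450 at day 0, again without overlap, a log2 fold change of 0.45 ± 0.10 (adjusted p = 0.000132). It was called 2.04 times as wide at day 3 (15246 bp) as at day 0 (7486 bp), so its fold also counts PETs in stretches called at day 3 only, and per kb it had 43.3 at day 3 and 65.0 at day 0. When merged across gaps of up to 5000 bp with its neighbour at -96 kb, the joint anchor had -0.22 (adjusted p = 0.00587). With loops of a deposited value of 0.01 or less, the -62 kb anchor had 0.51 (adjusted p = 0.0792).

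The start anchor had 1144 and 1194 CPM at day 3 and 1329 and 1302 at day 0, with a log2 fold change of -0.15 ± 0.07 (adjusted p = 0.0643). It was called 1.41 times as wide at day 3. The -96 kb anchor had 1498 and 1538 at day 3 and 1627 and 1771 at day 0 (-0.14 ± 0.07, adjusted p = 0.0636). Alternatives moved both anchors to either side of 0 and of the threshold. Leaving out 1 library moved the adjusted p of the start anchor to between 0.0628 and 0.907. With library totals in place of TMM both passed as lower (adjusted p = 0.0341 for the start and 0.0318 for -96 kb). With PETs inside an anchor added, both passed at larger folds, -0.23 for the start (adjusted p = 0.00385) and -0.48 for -96 kb (adjusted p = 4e-10). At these 2 anchors such PETs were listed at day 0 only, 32 and 24 at the start and 141 and 133 at -96 kb. Adding them therefore lowers the fold whatever the contacts between anchors did. Merging across gaps of up to 5000 bp joined the start anchor with its neighbours at -10 kb and 26 kb. That joint anchor had -0.31 (adjusted p = 0.000215). Counting only loops between anchors called at both times gave 0.13 for the start (adjusted p = 0.138) and 0.17 for -96 kb (adjusted p = 0.0272). With those loops the 60 kb and end anchors kept their sign and their call, while the 26 kb anchor lost its call (-0.20, adjusted p = 0.307).

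**Figure D4:**
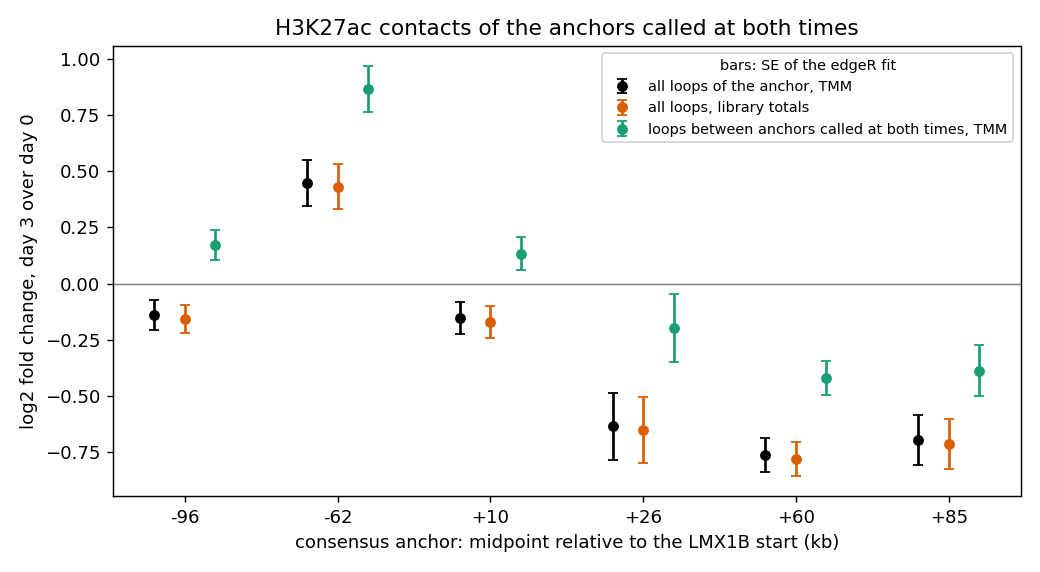
Log2 fold change of H3K27ac contacts, day 3 over day 0, for the 6 anchors called at both times, by midpoint from the LMX1B start in kb. Points and bars are the edgeR estimate and its SE (n = 2 libraries per time), for all loops with TMM (black), all loops with library totals (orange) and loops between anchors called at both times (green). The 60 kb and 85 kb anchors lie below 0 and the -62 kb anchor above 0 in all 3 fits, while the -96 kb and +10 kb (start) anchors change side.

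The 9 consensus anchors had 489 consensus loops, taken as those of the locus. Of these, 56 joined anchors called at both times and had enough PETs to be tested among 16642 loops. Of the 56 tested, 3 rose and 4 fell (12.5%), and over all tested loops 8.35% rose and 6.70% fell, 15.0% in all. With library totals in place of TMM, 1 loop of the locus was called higher and 10 lower. Over all tested loops that setting called 4.11% higher and 17.5% lower. The share called was thus near the background, and the median log2 fold change was 0.00 over the 56 loops and 0.06 over all.

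The loop between the gene body and the end of LMX1B (60 kb to 85 kb) fell, with 63.5 and 59.1 CPM at day 3 and 156 and 241 at day 0 (log2 fold change -1.20 ± 0.20, edgeR adjusted p = 1.43e-07). Its 60 kb anchor was called up to 129453150 at day 0 and up to 129449746 at day 3. The fold may thus also count PETs in a stretch called at day 0 only, as may those of other loops of the 60 kb anchor. The loop from the -62 kb anchor to the start rose, with 73.2 and 82.5 CPM at day 3 and 43.1 and 27.6 CPM at day 0, from 68, 81, 13 and 7 PETs (1.58 ± 0.30, adjusted p = 6.23e-06). The loop between the -96 kb and -62 kb anchors rose relative to the typical loop, with 399 and 413 CPM at day 3 and 361 and 304 at day 0 (0.75 ± 0.13, adjusted p = 1.79e-07). These 3 loops stayed called whichever of the 4 libraries was left out. None was called after thinning to the smallest library, where the adjusted p was 0.169, 0.161 and 0.0748 in the same order. The first had 0.42 with loops of a deposited value of 0.01 or less (adjusted p = 0.862). Merging anchors across gaps of up to 5000 bp pooled the second with other loops, among them that from -96 kb to the start. The joint loop had 0.24 (adjusted p = 0.165). Library totals moved the median log2 fold change of all loops to -0.40, and with them the loop of the -96 kb and -62 kb anchors had 0.28 (adjusted p = 0.0927). Of the 3 loops that rose, 2 had the -62 kb anchor, called wider at day 3, at an end, and the other was a distant loop of few PETs.

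The loop from the -96 kb anchor to the gene body fell (-0.52 ± 0.14, adjusted p = 0.00337), as did that from 26 kb to 60 kb (-1.02 ± 0.26, adjusted p = 0.00183). Both calls rested on single libraries. Without day 0 replicate 2 the adjusted p was 0.151 and 0.194, without day 3 replicate 2 it was 0.0562 and 0.226, and without day 3 replicate 1 the first had 0.397. The loop from the start to the gene body, the leading loop at day 0, had 317 and 325 CPM at day 3 and 510 and 536 at day 0. Its log2 fold change was -0.23 ± 0.12 relative to the typical loop (adjusted p = 0.181), and -0.70 with library totals (adjusted p = 5.16e-08). The loop from -96 kb to the start had 0.10 ± 0.13 (adjusted p = 0.665) and that from the start to the end 0.29 ± 0.21 (adjusted p = 0.372).

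The window held 0.308% ± 0.00477 of library PETs at day 3, against 0.426% ± 0.0247 at day 0 (SD over 2 libraries each), and the ratio was 0.725. The exact two-sided permutation p was 0.333, the smallest that 6 arrangements allow. Part of this difference lay in loops inside a single consensus anchor, which were listed where a region was split into several called anchors, as at day 0 and not at day 3. Without them the shares were 0.308% ± 0.00477 and 0.338% ± 0.0166, a ratio of 0.912. The same holds for span. The PET-weighted median distance between anchors was 104 kb in both day 3 libraries and 70.7 and 69.1 kb at day 0 (exact permutation p = 0.333), but 96.0 and 102 kb at day 0 without loops inside an anchor.

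Beyond the window, the locus reached 115 partner anchors, of which 84 had PETs for ARID1A, 70 for H3K27ac at day 3 and 32 at day 0. These counts do not compare reach between groups, since libraries differed in depth and in the anchors called. Some ARID1A partners rested on 1 PET and lay where no H3K27ac anchor was called. The leading partner in every library was the anchor at 129546115 to 129558974, 176 kb after the LMX1B start, with 18 and 25 PETs for ARID1A, 322 and 357 for H3K27ac at day 3, and 154 and 119 at day 0. Its loop to the -96 kb anchor did not pass the test over time (0.15 ± 0.18, adjusted p = 0.602). A partner at 129565767 to 129572177 had 67 and 63 day 3 PETs and no anchor at day 0. Among the leading partners was an anchor far upstream, at 127511317 to 127548775, with 4 and 5 PETs for ARID1A, 38 and 38 for H3K27ac at day 3 and 8 and 7 at day 0. Among distant loops, that from -96 kb to 130342895, over 1081 kb, rose (2.41 ± 0.84, adjusted p = 0.0337) on 15 and 13 PETs at day 3 and 1 in each library at day 0. That from 60 kb to 130182694 fell (-3.27 ± 0.82, adjusted p = 0.00375) on PET counts of 2 and 0 at day 3, against 5 and 4 at day 0. Neither was called without some single library: the adjusted p was 0.257 and 0.194 for the first without day 0 replicate 1 or 2, and 0.286 and 0.556 for the second without day 3 replicate 1 or 2.

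The 5 anchors elsewhere whose mean contacts in the 3 groups were most like those of the LMX1B start were sought among 5792 anchors called in all groups, by distance over log2(CPM + 1). The nearest was on chromosome 6 at 27847213 to 27866332 (distance 0.82), with 28.5 CPM for ARID1A, 1235 for H3K27ac at day 3 and 1720 at day 0. The next was on chromosome 2 at 70328249 to 70373138 (0.87), with 87.2, 1065 and 1337 in the same order. The other 3 were on chromosome 14 at 35864298 to 35886964 (1.06), chromosome 10 at 104936360 to 104973634 (1.17) and chromosome 6 at 26241679 to 26257550 (1.23). At each of the 5, the ARID1A anchors covered less of the region than those of H3K27ac at day 3, as at LMX1B, for example 4498 and 17278 bp at the first.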

How the data were processed

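Per the submitters' processing notes, HiC-Pro, Bowtie2 and the hg19 build were used; their settings, how anchors were called and which loop caller was run are not stated (not given in the sources used here). The authors' deposited files list, per library, pairs of anchors with a raw count of PETs and a value from 0 to 1, taken as a p-value or q-value (which is not stated) which entered alternatives only, at 0.01. Coordinates are printed as deposited, and whether they count from 0 or 1 is not stated.

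Groups were taken from the sample titles. Members and lists were chosen with earlier results of these data known. The 51970 distinct anchors were merged where they overlapped by 1 bp or more into 30001 consensus anchors and 348566 loops (Python 3.11.15, pandas 2.3.3, numpy 2.4.6, scipy 1.17.1). Loops inside a consensus anchor were left out of anchor and loop counts. H3K27ac day 3 was tested against day 0 with edgeR 4.0.16 in R 4.3.3 (quasi-likelihood, TMM on the PETs of the tested set, Benjamini-Hochberg adjusted p under 0.05), over features called at both times, with 10 PETs per anchor or 4 per loop in at least 2 libraries. The test was tried on simulated counts with a fixed dispersion. These do not reproduce anchors called per group, so no conclusion is drawn from that trial. CPM values use all listed PETs of a library, between 253502 and 982141. Named are LMX1B, every consensus anchor of the window, the 6 leading loops per group (8 in all) and the 5 most similar anchors; loops called by the test are named too, after their values were seen. Alternatives were DESeq2 1.42.0, library totals, other filters, thinning to 253502 PETs, other anchor merging, a replicate block and each library left out. Same-numbered libraries did not deviate together (correlation 0.0045 over anchors), so numbers were not used as pairs. No hg19 annotation was used here, so the planned values for LMX1B pathway genes are not given.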

Additional observations from a re-analysis of the deposited data

How the results depend on the processing

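Of the 6 tested anchors of the window, 4 were called; other settings gave 3 to 6 calls, except that only loops with a deposited value of 0.01 or less gave 1, and leaving out any 1 library gave 4 each time. For loops, 7 of 56 were called, against 11 with library totals, 3 with DESeq2, 33 over all regions (where an uncalled region enters as 0), 2 with anchors of similar width (34 tested), 16 at the deposited value of 0.01 or less, and 3 to 5 without any 1 library. When all libraries were thinned to equal depth, edgeR called 0 of 27 loops, with 8 at an unadjusted p under 0.05; DESeq2 was not run on thinned counts. The replicate block left 4 anchors and 6 loops called. The share called over all features moved with these settings too. For anchors it ran from 33.8% (DESeq2) to 80.8% (all regions, where 8 window anchors were tested). For loops it was 21.7% with library totals, 3.51% with DESeq2 and 66.4% over all regions (80 tested in the locus). It was 2.43% with anchors of similar width, 42.6% at the deposited value of 0.01 or less (44 tested in the locus) and 2.14% after thinning. Single anchors kept direction and side of the threshold in 73 of 89 comparisons with an alternative, and single loops in 88 of 129. Signs turned as follows, and where no setting's construction shows it the cause was not tested. For anchors of similar width, the -96 kb and start anchors had 0.072 and 0.059, and the start to gene body loop 0.14. For loops between anchors called at both times, a setting chosen after seeing the data, they had 0.17 and 0.13. Merged across 5000 bp, the -62 kb anchor had -0.22, and the loops of -96 kb to 129546115 and of the start to the end had -0.046 and -0.36. With library totals, the loops of -96 kb to the start, -96 kb to 129546115 and the start to the end had -0.37, -0.32 and -0.18. Without a filter the start to gene body loop had 0.083. At the deposited value of 0.01 or less, where unlisted loops enter as 0, the 26 kb anchor had 9.37, its loop to 60 kb 7.71, and the loops of -96 kb, the start and the end anchor to the gene body 0.57, 0.41 and 0.42.

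The log2 difference in window share over time was -0.46. It stayed below 0, between -0.52 and -0.40 without any 1 library, but was -0.0068 at the deposited value of 0.01 or less, and the span difference of 34.1 kb stayed above 0 (4.89 kb without loops inside an anchor, also chosen after seeing the data). The log2 ratio of ARID1A to H3K27ac at day 3 over the window was -2.14, -1.96 over chromosome 9 only, -2.67 at the deposited value of 0.01 or less and -2.72 for loops with both anchors in the window. It lay between -2.24 and -2.05 without any 1 library. Depth limits the ARID1A shares of the start anchor, which had 21 and 22 PETs.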

Other observations

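Long loops held a larger share of the ARID1A PETs of the window than of the whole ARID1A libraries. A member needs only 1 anchor in the window, so a long loop can be caught from either end. A window can thus exceed its library by selection alone, so the shares below cannot show longer contacts. The PET-weighted median distance in the ARID1A libraries was 117 and 150 kb over the window. It was 50.7 and 150 kb with loops of a deposited value of 0.01 or less. Loops spanning over 500 kb held 27.8% and 32.1% of the ARID1A PETs of the window, against 11.5% and 11.6% over the whole libraries. For H3K27ac they held 21.2% and 18.6% at day 3, against 15.3% and 14.6% over the whole libraries, and 10.2% and 11.3% at day 0, against 11.5% and 11.8%. The ARID1A loops of the locus were also thin, since 71.5% and 67.8% of them rested on 1 PET, against 57.0% and 56.2% over the whole libraries, while the H3K27ac day 3 loops did so in 40.5% and 35.3%, against 41.5% and 41.0%. These shares were chosen after the values were seen and carry no test, and the part of depth in them was not tested.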
